A study of Homo sapiens with 9 samples.

Results

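The clustered protocadherins are adhesion proteins of the cadherin superfamily whose genes lie side by side on chromosome 5 in 3 groups named alpha, beta and gamma. All symbols of the count table made of PCDHA, PCDHAC, PCDHB, PCDHGA, PCDHGB or PCDHGC and a number were taken, which gave 54 of 60199 symbols (16 alpha, 16 beta and 22 gamma). They were read in 9 poly-A RNA libraries of MCF10A cells, a nonmalignant human mammary epithelial line in which CDKN2A is deleted and MYC amplified. CT was the parental line without added cytokines, labelled not transformed. MC26 was unsorted MCF10A kept for a long time with BMP2, a bone morphogenetic protein, and IL6, an interleukin. M1B26 came from MCF10A cells sorted for BMPR1B, a BMP receptor, which were treated with BMP2 and IL6 and from which 3 soft-agar clones were expanded into the line. MC26 and M1B26 were labelled transformed. Each line was represented by 3 independent cultures, so p-values measure the spread between cultures of a line, and sorting, cloning and treatment cannot be told apart in M1B26.

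Clustered protocadherins sit on the cell membrane, bind copies of themselves on neighbouring cells and are best known from neurons, where each cell uses a small set of them as an identity code. An alpha or gamma protein is made from a large exon of its own, which holds the extracellular, transmembrane and proximal cytoplasmic parts, spliced to constant exons that all members of its cluster share, whereas a beta protein comes from a single exon. Most members have their own promoter with a short conserved element around the letters CGCT, and promoter use depends on CTCF, cohesin and DNA methylation. The C-type members (PCDHAC1, PCDHAC2, PCDHGC3, PCDHGC4 and PCDHGC5) are regulated apart from the rest and are used more evenly by cells. In breast and other tumours the clusters are known for methylation over long stretches of the locus.

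The 3 clusters lie on the plus strand of chromosome 5 in GRCh38 (GENCODE v44), alpha at chr5:140786136-141012347, beta at chr5:141051374-141249365 and gamma at chr5:141330514-141512977. Alpha members shared 2869 exonic bases in 3 stretches, gamma members shared 2177 bases in 3 stretches, and beta members shared none. A read from a shared stretch cannot be given to a member by sequence, and how the deposited counts treated such reads was not stated. PCDHA2, PCDHA3 and PCDHA5 were listed at 0 in all 9 libraries while other alpha members had up to 897 counts in a library, so reads from the shared exons were not added to every member. Whether they were dropped or assigned to some members is not given in the sources used here, and alpha and gamma levels are therefore less certain than beta levels.

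The promoters of the members show how alike they are within a cluster. RefSeq promoters (GRCh38.p14, 250 bases before to 50 after a gene's start) were found for 47 of the 54 members. For each cluster the word of 9 letters around CGCT that occurred in most of its members was read from these same promoters and then searched on both strands. The alpha word GATGTCGCT occurred in 9 of 13 alpha promoters and in 0.105% of 35116 promoters. The beta word GGTGGCGCT was present in 13 of 14 beta promoters, all but PCDHB1, and in 0.501% of the 35116. The gamma word GCGCCGCTG was found in 10 of 20 gamma promoters and in 1.28% of the 35116. No word occurred in a promoter of another cluster, and none occurred in PCDHAC1, PCDHAC2, PCDHGC3 or PCDHGC4. The bare letters CGCT are part of each word and were in 70.008% of the 35116 promoters. The words describe these promoters and are not measured binding sites.

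The windows below belong to the 9 tested members with the beta word, with CGCT in capitals and all on the plus strand. Whether the word bears on their levels was not tested.
PCDHB2 (chr5:141094550-141094573): cgcggggtggCGCTgcagccttag
PCDHB3 (chr5:141100399-141100422): cgcatggtggCGCTgttgactaag
PCDHB5 (chr5:141135185-141135208): cgcctggtggCGCTgcaggctaag
PCDHB16 (chr5:141182316-141182339): cgcgtggtggCGCTgcaggttaag
PCDHB9 (chr5:141187080-141187103): cacaaggtggCGCTgcagactgaa
PCDHB10 (chr5:141192305-141192328): cacacggtggCGCTgcaggctaaa
PCDHB12 (chr5:141208649-141208672): cgcgtggtggCGCTgcaggataat
PCDHB13 (chr5:141213871-141213894): cgcgtggtggCGCTgcaggataag
PCDHB14 (chr5:141223269-141223292): cacatggtggCGCTacaggataag

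Windows of the same length around the alpha and gamma words are given for tested members, to show the letters on either side of CGCT that differ between clusters.
PCDHA6 (chr5:140827903-140827926): cgcatgatgtCGCTgtctaccatg
PCDHA7 (chr5:140834178-140834201): cacatgatgtCGCTctttaccgca
PCDHA12 (chr5:140875250-140875273): cacatgatgtCGCTctacactcag
PCDHGA1 (chr5:141330409-141330432): ctgtgggcgcCGCTgttcactaat
PCDHGB1 (chr5:141350031-141350054): ctctgggcgcCGCTgtcgaccaaa
PCDHGA9 (chr5:141402720-141402743): ctctgagcgcCGCTgttgatcaac
PCDHGA10 (chr5:141412937-141412960): ctctgagcgcCGCTgttcacctac
PCDHGA11 (chr5:141420978-141421001): ctctaggcgcCGCTgctcaccaat

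PCDHB5 fell and PCDHB16 rose in M1B26, and this pair was chosen after the values were seen to show their 300-base RefSeq promoters in full, with the beta word in capitals. PCDHB5 (chr5:141134956-141135255) and PCDHB16 (chr5:141182137-141182436) carried the same 9 letters, with CGCT beginning at -11 from the annotated start in PCDHB5 and at -61 in PCDHB16.
PCDHB5: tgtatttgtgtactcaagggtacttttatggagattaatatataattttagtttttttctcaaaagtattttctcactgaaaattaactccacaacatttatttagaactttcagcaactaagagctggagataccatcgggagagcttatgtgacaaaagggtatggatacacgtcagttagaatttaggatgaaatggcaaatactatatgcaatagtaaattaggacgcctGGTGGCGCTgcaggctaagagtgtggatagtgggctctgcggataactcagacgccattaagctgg
PCDHB16: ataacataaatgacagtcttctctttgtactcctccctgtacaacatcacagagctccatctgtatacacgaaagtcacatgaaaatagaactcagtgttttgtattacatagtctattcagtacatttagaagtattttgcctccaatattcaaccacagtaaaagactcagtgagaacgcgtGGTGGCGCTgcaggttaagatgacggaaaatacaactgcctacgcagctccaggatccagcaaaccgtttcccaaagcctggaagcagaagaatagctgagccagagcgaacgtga

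Total counts per library ran from 21425118 (CT replicate 2) to 80076597 (CT replicate 3), and values are given as counts per 1000000 (CPM) after TMM scaling, so that 1 count stood for 0.0122 to 0.0437 CPM. At 3 counts or fewer in a library a member was treated as not detectable there. Of the 54 members, 4 had no count (PCDHA2, PCDHA3, PCDHA5 and the pseudogene PCDHA14), 7 (those 4, PCDHA8, PCDHA9 and PCDHB1) never exceeded 3 counts, and 17 exceeded 3 counts in all 9 libraries. The filter on low counts kept 24 members for testing (5 alpha, 9 beta and 10 gamma). Of these, PCDHA7 and PCDHB3 passed through M1B26 alone and PCDHGA9 through CT alone, so those members had to be higher in that line to be tested. PCDHB9, PCDHB10, PCDHB12 and PCDHGB1 passed through MC26 and M1B26 but not through CT, so their testing depended on their level in the transformed lines. PCDHB5 did not pass through M1B26, and PCDHGA11 did not pass through MC26. The 30 members not tested had mean levels of at most 0.198 CPM. The plot of all members by library shows that the detectable members are scattered along each cluster, with the highest levels at the C-type end of alpha and gamma.

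**Figure D1:**
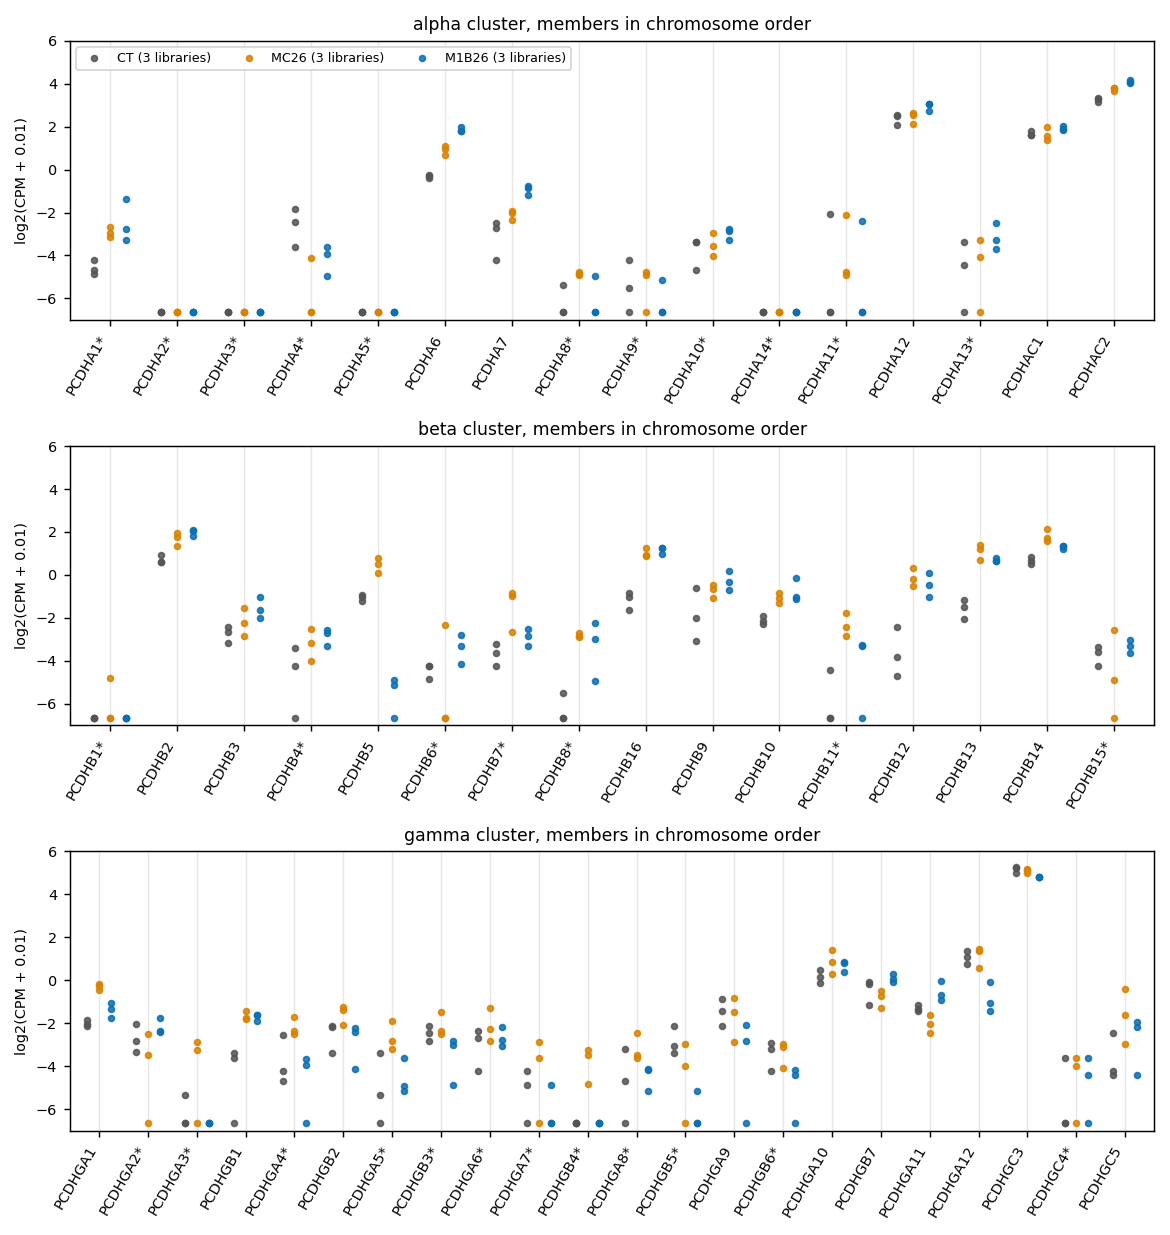
Level of each of the 54 members in each of the 9 libraries, on a log2 scale of CPM plus 0.01, in chromosome order and in 3 panels for the alpha, beta and gamma clusters. Grey, orange and blue points are the 3 CT, 3 MC26 and 3 M1B26 libraries, an asterisk marks a member that was not tested, and points at the bottom are libraries with no count. PCDHGC3 and PCDHAC2 lie above the other members, and PCDHB5 drops to the bottom in M1B26.

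The labelled cell type was present in its markers: KRT5, KRT17, KRT18, CDH3 and TP63 were detected in all 9 libraries. The levels of the 8 epithelial markers were not the same in the 3 lines, with 3 higher and 3 lower in MC26 compared with CT, 2 and 2 in M1B26 compared with CT, and 2 and 3 in M1B26 compared with MC26 (edgeR). In the same order 38.7%, 48.9% and 39.5% of all tested genes were called. EPCAM, an epithelial adhesion protein, had means of 70.4, 14.8 and 72.1 CPM in the order CT, MC26, M1B26, CDH1 (E-cadherin) 76.4, 40.7 and 44.1, and KRT14, a basal keratin, 54.1, 1097 and 548. Genes that mark neurons, which use clustered protocadherins strongly, were at or near 0 for RBFOX3, STMN2, NEFL and SNAP25, and 1 of the 6 neuronal markers carried nearly all of that list's sum. This was TUBB3, a tubulin, with means of 77.7, 279 and 202 CPM in the order CT, MC26, M1B26, and the list's sum was 62.4 to 95.2, 219 to 361 and 185 to 220 CPM. The 4 fibroblast markers summed to 6.86 to 8.42 CPM in CT, 8.68 to 11.3 in MC26 and 18.4 to 22.0 in M1B26, where LUM and COL1A1 rose while COL1A2 and PDGFRA stayed near 0, and the part of the epithelial, neuronal and fibroblast markers in the results was not tested. The leukocyte markers PTPRC and CD3E came to at most 0.0286 CPM together in any library. In RNA from whole cultures, fewer cells of a type and less RNA per cell cannot be told apart.

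The 3 clusters differed in their pattern. Summed over all its members, the alpha cluster was higher in MC26 than in CT and higher still in M1B26, the beta cluster was above CT in both transformed lines, and the gamma cluster, the most abundant, was lower in M1B26. These sums were given no test, and they are less affected than single members by how shared reads were split. Alpha sums were 18.9, 18.5 and 20.5 CPM in CT, 25.0, 24.7 and 24.3 in MC26, and 34.6, 32.4 and 33.4 in M1B26, with no overlap between any of the lines. Beta sums were 4.92, 6.07 and 5.49 CPM in CT, 12.5, 15.8 and 18.5 in MC26, and 14.1, 13.2 and 12.9 in M1B26, so that the transformed lines overlapped each other and both lay above CT. Gamma sums were 45.2, 37.5 and 44.4 CPM in CT, 39.0, 44.9 and 45.6 in MC26, and 33.7, 32.6 and 34.8 in M1B26, which left CT and MC26 overlapping and M1B26 below both.

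On the log2 scale the ratio of the line means was 0.35 for alpha, 1.51 for beta and 0.03 for gamma in MC26 compared with CT. In M1B26 compared with CT the ratios were 0.79, 1.29 and -0.33. Between M1B26 and MC26 they were 0.44, -0.22 and -0.36. The makeup of the protocadherin counts differed between the lines. Gamma held 60.4% to 65.4% of them in CT, 51.0% to 52.6% in MC26 and 40.9% to 42.9% in M1B26. The alpha share was 27.4% to 29.8% in CT, 27.4% to 32.6% in MC26 and 41.2% to 42.0% in M1B26, and the beta share was 7.12% to 9.78%, 16.4% to 21.0% and 15.9% to 17.1%. All members together came to 67.1 ± 4.44 CPM for CT, 83.5 ± 6.16 for MC26 and 80.6 ± 2.12 for M1B26 (SD, n = 3).

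**Figure D2:**
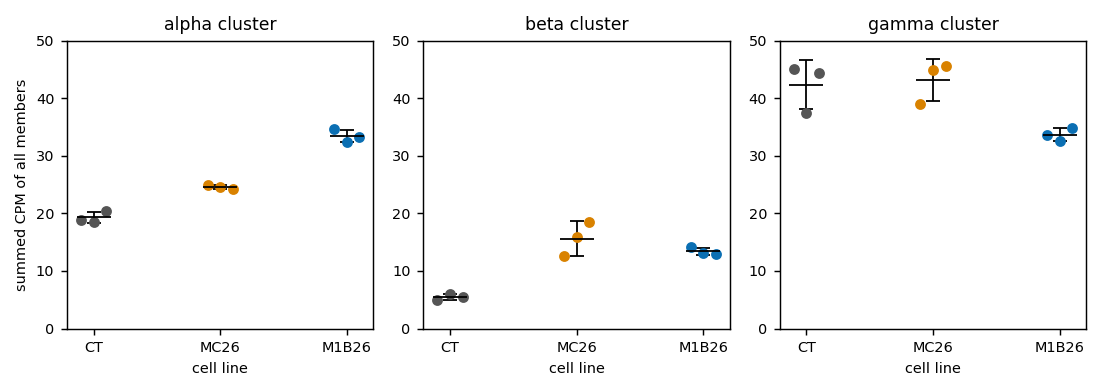
Summed CPM of all members of the alpha, beta and gamma clusters (vertical axis, from 0) in CT, MC26 and M1B26. Each point is a library and the black bar is the mean with its SD over 3 libraries. The alpha sum is highest in M1B26 at 33.5 CPM, the beta sum is above CT in both transformed lines, and the gamma sum is lowest in M1B26 at 33.7 CPM.

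Among the 24 tested members, MC26 compared with CT had 12 higher and 0 lower (edgeR, adjusted p under 0.05), against 38.7% of all 15717 tested genes called, 18.8% higher and 19.9% lower. Of the 24, 14 did not overlap between these lines, where 50.3% of all tested genes did not. In M1B26 compared with CT, 14 were higher and 3 lower, against 48.9% of all tested genes called, 25.2% higher and 23.7% lower, and 19 of the 24 did not overlap, where 59% of all tested genes did not. Between M1B26 and MC26 6 were higher and 5 lower in M1B26, against 39.5% of genes called, 21.2% higher and 18.4% lower, and 12 did not overlap, where 53.5% of all tested genes did not. The share called among the tested members was 50%, 70.8% and 45.8% in the same order. Their median log2 fold change was 1.02, 0.82 and 0.04, and that of all tested genes was 0.00 in each comparison. These shares and medians include members that did not pass the filter through CT. The comparisons share libraries, so their values are given side by side only.

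**Figure D3:**
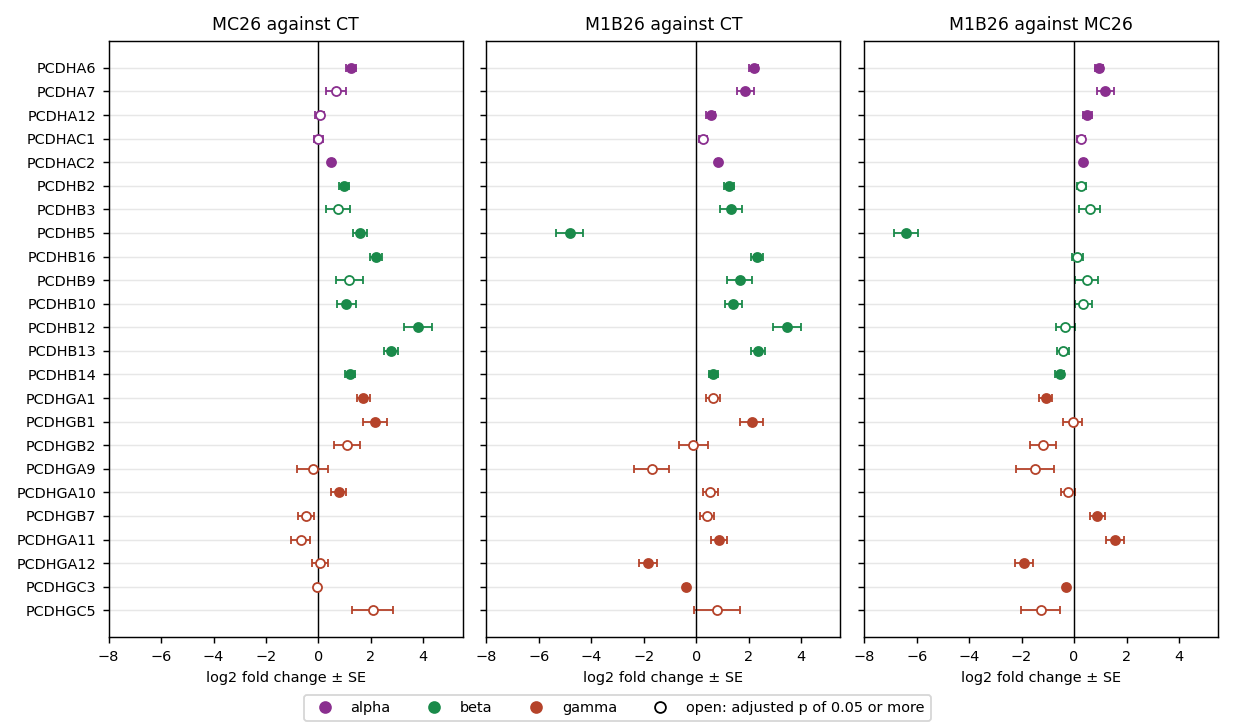
Log2 fold change with its standard error (horizontal axis) of the 24 tested members, with 1 panel for each of the 3 comparisons between lines. Colours mark the cluster, and open points have an adjusted p of 0.05 or more (edgeR). All filled beta points lie to the right of 0 in the first panel, and PCDHB5 lies at -4.82 and -6.39 in the other panels.

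The beta cluster, whose members are single-exon adhesion proteins, had the largest share of its tested members called against CT. The share was 77.8% in MC26 and 100% in M1B26, where 38.7% and 48.9% of all tested genes were called. PCDHB3, PCDHB9, PCDHB10 and PCDHB12 passed the filter only through transformed lines. The beta shares and medians against CT are therefore in part fixed by the filter. In MC26 compared with CT 7 of its 9 tested members rose and 0 fell, and in M1B26 compared with CT 8 rose and 1, PCDHB5, fell. Without CT replicate 1 the count that rose in M1B26 was 5. The median log2 fold change of the tested beta members was 1.20 in MC26 and 1.42 in M1B26. Beta members resemble each other in sequence: windows of 100 bases repeated exactly in another member made up 24.7% of PCDHB10, 15.1% of PCDHB13 and 11.5% of PCDHB2, which bears on how reads were divided among them.

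PCDHB5 changed in opposite directions in the transformed lines. It had 36, 11 and 35 counts in CT (0.514, 0.480 and 0.427 CPM), 43, 66 and 61 in MC26 (1.07, 1.73 and 1.44 CPM), and 0, 1 and 1 in M1B26 (0, 0.0237 and 0.0185 CPM). Every MC26 library was above every CT library, and M1B26 was at or under the detection limit in all 3. In PCDHB5 501 of 3410 bases lie opposite another annotated gene. PCDHB5 rose in MC26 by 1.57 ± 0.26 on the log2 scale (SE, edgeR adjusted p = 0.000924). It fell in M1B26 compared with CT and with MC26 (edgeR adjusted p = 3.1e-05 and 4.54e-06). The fitted values of -4.82 and -6.39 depend on the prior count, since M1B26 had 2 counts in all. The ratio of scaled counts was 33.01 for CT over M1B26 (exact 95% counting interval 8.85 to 277) and 98.9 for MC26 over M1B26 (27.0 to 823), intervals that cover counting error only.

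PCDHB16, further along the cluster, showed another pattern. Its level was 0.314, 0.480 and 0.549 CPM in CT, 1.91, 1.86 and 2.38 in MC26 and 2.41, 2.39 and 1.94 in M1B26. All transformed libraries were above all CT libraries, and MC26 and M1B26 overlapped. PCDHB16 rose by 2.20 ± 0.24 in MC26 compared with CT and 2.33 ± 0.23 in M1B26 on the log2 scale (SE, edgeR adjusted p = 4.39e-05 and 1.87e-05). In its own exon 815 of 3840 bases lie opposite another annotated gene, and without stated strand counting reads of the 2 strands cannot be told apart there.

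PCDHB13 and PCDHB12 rose most. PCDHB13 was at 0.343, 0.437 and 0.232 CPM in CT, 1.59, 2.59 and 2.31 in MC26 and 1.74, 1.54 and 1.57 in M1B26. The transformed lines lay above CT without overlap. The log2 fold change was 2.78 ± 0.27 in MC26 and 2.36 ± 0.27 in M1B26 (SE, edgeR adjusted p = 2.06e-05 and 4.45e-05). PCDHB12 had 2, 4 and 5 counts in CT, 28, 33 and 53 in MC26 and 32, 45 and 26 in M1B26. Its CT counts stood near the detection limit, and it rose by 3.80 ± 0.52 and 3.47 ± 0.52 on the log2 scale (SE, edgeR adjusted p = 0.000239 and 0.000304). PCDHB12 did not pass the filter through CT, so it was tested because of its level in the transformed lines.

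PCDHB2 and PCDHB14 were the most abundant beta members. PCDHB2 was at 1.51, 1.49 and 1.88 CPM in CT, 2.56, 3.35 and 3.83 in MC26 and 4.19, 3.46 and 4.08 in M1B26. It rose by 0.98 ± 0.18 in MC26 and 1.25 ± 0.18 in M1B26 on the log2 scale (SE, edgeR adjusted p = 0.0017 and 0.000222), and 1797 of its 4098 bases lie opposite another annotated gene. PCDHB14 was at 1.40, 1.79 and 1.56 CPM in CT, 3.01, 3.32 and 4.42 in MC26 and 2.55, 2.51 and 2.31 in M1B26, so that the lines followed in the order CT, M1B26, MC26 without overlap. Its log2 fold change was 1.20 ± 0.18 in MC26 (SE, edgeR adjusted p = 0.000419). In M1B26 it was 0.65 ± 0.18 compared with CT (edgeR adjusted p = 0.0112, and 0.0554 without CT replicate 1) and -0.55 ± 0.17 compared with MC26 (edgeR adjusted p = 0.0263, and 0.0525 to 0.0967 without any of MC26 replicate 3 or M1B26 replicates 1, 2 or 3).

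Of the other 3 tested beta members (PCDHB3, PCDHB9 and PCDHB10), PCDHB10 rose in MC26 and all 3 rose in M1B26, with log2 fold changes of 0.73 to 1.18 and 1.33 to 1.66. None of these 3 passed the filter through CT. PCDHB1, the member at the start of the cluster whose promoter lacked the beta word, had 1 count in all 9 libraries together. The 7 beta members that were not tested had at most 23 counts in any library.

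**Figure D4:**
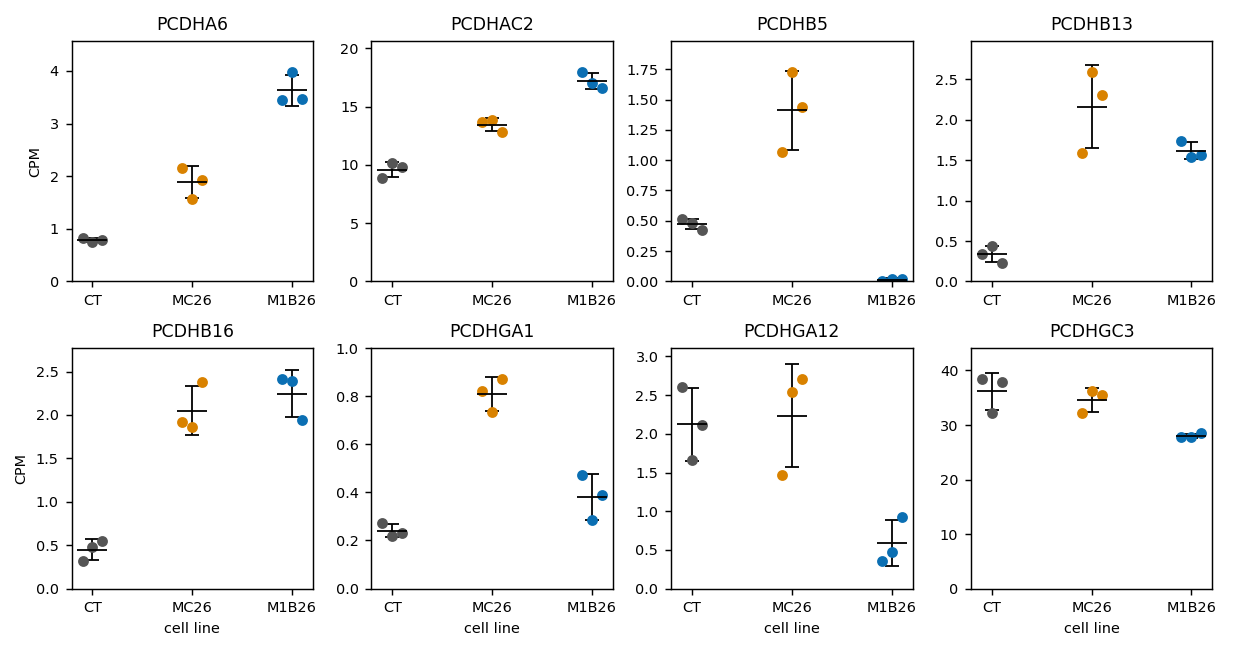
CPM (vertical axes, each from 0 and on its own scale) of 8 members in CT, MC26 and M1B26. Each point is a library and the black bar is the mean with its SD over 3 libraries. PCDHA6 and PCDHAC2 step up from line to line, PCDHB13 and PCDHB16 are above CT in both transformed lines, PCDHGA1 is highest in MC26, and PCDHB5, PCDHGA12 and PCDHGC3 are lowest in M1B26.

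In the alpha cluster all calls were upward. In MC26 compared with CT 2 of its 5 tested members rose (PCDHA6 and PCDHAC2), and in M1B26 4 rose compared with CT and 4 compared with MC26. The share called was 40%, 80% and 80%, where 38.7%, 48.9% and 39.5% of all tested genes were called. In MC26 compared with CT the share was thus near the background. The M1B26 counts include PCDHA7, which passed the filter through M1B26 alone. None fell in any comparison. The median log2 fold change of the 5 was 0.49, 0.85 and 0.50. At most 22 counts were seen in any library for the 11 alpha members not tested.

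PCDHAC2, a C-type member, held 46.9% to 56.2% of the alpha counts in each library. Its level was 8.87, 10.1 and 9.81 CPM in CT, 13.7, 13.9 and 12.8 in MC26 and 18.0, 17.1 and 16.6 in M1B26. No line overlapped another. The rise of PCDHAC2 was 0.49 ± 0.08 for MC26 and 0.85 ± 0.08 for M1B26 on the log2 scale (SE, edgeR adjusted p = 0.00109 and 1.77e-05). M1B26 was above MC26 by 0.35 ± 0.08 (SE, edgeR adjusted p = 0.00661). The neighbouring C-type member PCDHAC1 passed in no comparison with all libraries (between M1B26 and MC26 the edgeR adjusted p was 0.227, and 0.0398 without MC26 replicate 1), at 3.03, 3.01 and 3.46 CPM in CT, 3.98, 2.93 and 2.61 in MC26 and 3.67, 3.62 and 4.12 in M1B26.

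PCDHA6 had the largest rise in alpha. It was at 0.829, 0.743 and 0.793 CPM in CT, 2.16, 1.57 and 1.93 in MC26 and 3.45, 3.98 and 3.47 in M1B26, with no overlap between lines. Its log2 fold change was 1.25 ± 0.18 in MC26, 2.19 ± 0.17 in M1B26 and 0.94 ± 0.16 between M1B26 and MC26 (SE, edgeR adjusted p = 0.000297, 3.22e-06 and 0.00103). Opposite another annotated gene lie 592 of its 3267 own bases.

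PCDHA7, the next member along the chromosome, had 10, 1 and 14 counts in CT, 10, 9 and 8 in MC26 and 24, 18 and 31 in M1B26. In CPM all M1B26 libraries were above all others. PCDHA7 rose by 1.88 ± 0.34 in M1B26 compared with CT (SE, edgeR adjusted p = 0.000931) and by 1.20 ± 0.33 compared with MC26 (edgeR adjusted p = 0.0145, but 0.0525 without M1B26 replicate 3 and 0.0588 with DESeq2). PCDHA7 passed the filter through M1B26 alone, so a higher level there was a condition of its being tested. Repeated windows made up 18.0% of its own bases. PCDHA12, the third most abundant member per length, was at 5.69, 4.15 and 5.80 CPM in CT, 4.38, 5.83 and 6.26 in MC26 and 8.41, 6.70 and 8.16 in M1B26. The M1B26 libraries lay above the others. Opposite another annotated gene lie 577 of the 2588 own bases of PCDHA12. PCDHA12 rose by 0.55 ± 0.17 in M1B26 compared with CT (edgeR adjusted p = 0.0172, and 0.061 and 0.0502 without M1B26 replicate 1 or 3). Compared with MC26 it rose by 0.50 ± 0.17 (edgeR adjusted p = 0.0345, and 0.0514 to 0.114 without any of CT replicate 1, MC26 replicates 1 or 2, or M1B26 replicates 1 or 3).

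The share of tested gamma members called was not above the background in either comparison with CT. In MC26 compared with CT 3 of its 10 tested members rose (PCDHGA1, PCDHGB1 and PCDHGA10) and none fell. In M1B26 compared with CT 2 rose (PCDHGB1 and PCDHGA11) and 2 fell (PCDHGA12 and PCDHGC3), and compared with MC26 2 rose and 3 fell. The share called was 30%, 40% and 50%, where 38.7%, 48.9% and 39.5% of all tested genes were called. Of the 5 gamma A members tested 2, 2 and 3 were called in these comparisons, and of the 3 gamma B members 1, 1 and 1. The median log2 fold change of the 10 was 0.41, 0.48 and -0.69, so that in M1B26 compared with CT the median was above 0 while the summed gamma level, led by PCDHGC3, was below CT.

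PCDHGC3, a C-type member, was the most abundant clustered protocadherin in every library. Per kilobase of its own exon it reached 10.1 CPM on average, against 4.08 for PCDHAC2, 2.38 for PCDHA12 and at most 0.816 for the other tested members. These values divide all counts of a member by its own bases alone. If reads from shared exons were assigned to members, alpha and gamma values are too high beside beta. PCDHGC3 held 77.9% to 85.9% of the gamma counts in each library. Levels were 38.4, 32.2 and 37.9 CPM in CT, 32.2, 36.2 and 35.5 in MC26 and 27.8, 27.7 and 28.5 in M1B26. CT and MC26 overlapped and M1B26 lay below both. PCDHGC3 fell by 0.37 on the log2 scale in M1B26 compared with CT (SE 0.08, edgeR adjusted p = 0.00315). It fell by 0.31 compared with MC26 (SE 0.08, edgeR adjusted p = 0.0124, and 0.0582 without MC26 replicate 2). Without PCDHGC3 the gamma sum was 6.20 ± 0.798 CPM for CT, 8.55 ± 1.595 for MC26 and 5.70 ± 0.710 for M1B26 (SD, n = 3), and its CT and M1B26 libraries overlapped.

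PCDHGA12 lies just before PCDHGC3 on the chromosome and was the second most abundant gamma member per length. It was at 2.60, 1.66 and 2.11 CPM in CT, 1.47, 2.54 and 2.71 in MC26 and 0.361, 0.473 and 0.923 in M1B26. All M1B26 libraries were below all others. PCDHGA12 fell by 1.85 on the log2 scale compared with CT (SE 0.34, edgeR adjusted p = 0.00116). It fell by 1.90 compared with MC26 (SE 0.35, edgeR adjusted p = 0.0016).

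PCDHGA1 and PCDHGB1, at the other end of the cluster, were higher in MC26. PCDHGA1 was at 0.272, 0.218 and 0.232 CPM in CT, 0.821, 0.732 and 0.871 in MC26 and 0.473, 0.284 and 0.388 in M1B26, in 3 levels without overlap. It rose by 1.71 ± 0.26 in MC26 (SE, edgeR adjusted p = 0.000499), and M1B26 lay below MC26 (log2 fold change -1.07 ± 0.25, edgeR adjusted p = 0.00619). Its M1B26 value of 0.64 ± 0.28 compared with CT did not pass (edgeR adjusted p = 0.078, but 0.0468 without M1B26 replicate 2). PCDHGB1 had 5, 0 and 7 counts in CT, 11, 14 and 12 in MC26 and 14, 11 and 17 in M1B26. It rose by 2.15 ± 0.45 and 2.11 ± 0.44 (SE, edgeR adjusted p = 0.00326 and 0.00237). PCDHGB1 did not pass the filter through CT, so it was tested because of its level in the transformed lines. Of its 2595 own bases 554 lie opposite another annotated gene.

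PCDHGA11 and PCDHGB7 were higher in M1B26 than in MC26. PCDHGA11 was at 0.357, 0.437 and 0.390 CPM in CT, 0.174, 0.314 and 0.235 in MC26 and 0.519, 0.615 and 0.979 in M1B26. The 3 lines did not overlap. The log2 fold change of PCDHGA11 between M1B26 and MC26 was 1.56 ± 0.33 (SE, edgeR adjusted p = 0.00388). Compared with CT it was 0.87 ± 0.30 (edgeR adjusted p = 0.0316, but 0.114, 0.0877 and 0.166 without CT replicate 1, CT replicate 3 or M1B26 replicate 3, and 0.091 with DESeq2). PCDHGB7 was at 0.872, 0.437 and 0.939 CPM in CT, 0.398, 0.601 and 0.706 in MC26 and 1.22, 1.02 and 0.942 in M1B26. All M1B26 libraries were above the others, by the least margin over CT replicate 3. The difference of PCDHGB7 between M1B26 and MC26 was 0.89 ± 0.30 (edgeR adjusted p = 0.0337, and 0.0508 to 0.118 without any of CT replicate 1, MC26 replicates 1 or 2, or M1B26 replicates 1 or 2).

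The rise of PCDHGA10 in MC26 was slight. Levels were 0.900, 1.40 and 1.098 CPM in CT, 1.22, 1.78 and 2.64 in MC26 and 1.71, 1.28 and 1.79 in M1B26, and CT and MC26 overlapped. The log2 fold change was 0.78 ± 0.28 (SE, edgeR adjusted p = 0.0495). The adjusted p was 0.0847 to 0.201 without any of CT replicates 1 or 3 or MC26 replicates 2 or 3, 0.055 to 0.0653 without any M1B26 replicate, 0.0749 with total counts, and 0.0776 with only the 6 libraries compared. PCDHGC5 had 12, 1 and 3 counts in CT, 30, 12 and 5 in MC26 and 11, 9 and 2 in M1B26 and passed in no comparison of the main fit. Its edgeR adjusted p in MC26 compared with CT moved from 0.0586 to 0.0384, 0.0187 and 0.0461 without CT replicate 1, MC26 replicate 3 or M1B26 replicate 3, and was 0.00265 with no filter. With a block for replicate number PCDHGC5 was called in that comparison (edgeR adjusted p = 0.00627) and between M1B26 and MC26 (0.041). PCDHGC4 stayed at 5 counts or fewer in every library. The 12 gamma members that were not tested had at most 19 counts in any library.

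Genes next to the clusters had smaller median changes against CT than the beta members. The beta medians include PCDHB3, PCDHB9, PCDHB10 and PCDHB12, which passed the filter only through transformed lines. That difference is therefore in part fixed by the filter. Of 16 tested genes on both sides of the locus and between the clusters, 5 rose and 1 fell in MC26 compared with CT, 8 rose and 1 fell in M1B26 compared with CT, and 3 rose and 4 fell in M1B26 compared with MC26. In either direction these counts stood near the 38.7%, 48.9% and 39.5% of all tested genes called. Of all tested genes 18.8%, 25.2% and 21.2% were higher and 19.9%, 23.7% and 18.4% lower. Against CT the neighbours' calls thus lay mostly on the higher side, above the background there and below it on the lower side. The median log2 fold change of these genes was 0.16, 0.17 and 0.11. TAF7, a subunit of the general transcription factor TFIID that lies between the beta and gamma clusters, had means of 90.0, 86.8 and 95.2 CPM in the order CT, MC26, M1B26 and passed in no comparison. CD14, a lipopolysaccharide coreceptor on the alpha side, rose by 2.06 on the log2 scale in M1B26 compared with CT (edgeR adjusted p = 3.75e-05). DND1, an RNA-binding protein gene, rose by 0.79 in MC26 and 0.92 in M1B26 (edgeR adjusted p = 0.0192 and 0.00654), and NDUFA2, RELL2 and TMCO6 rose by 0.68, 0.57 and 0.58 in M1B26.

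**Figure D5:**
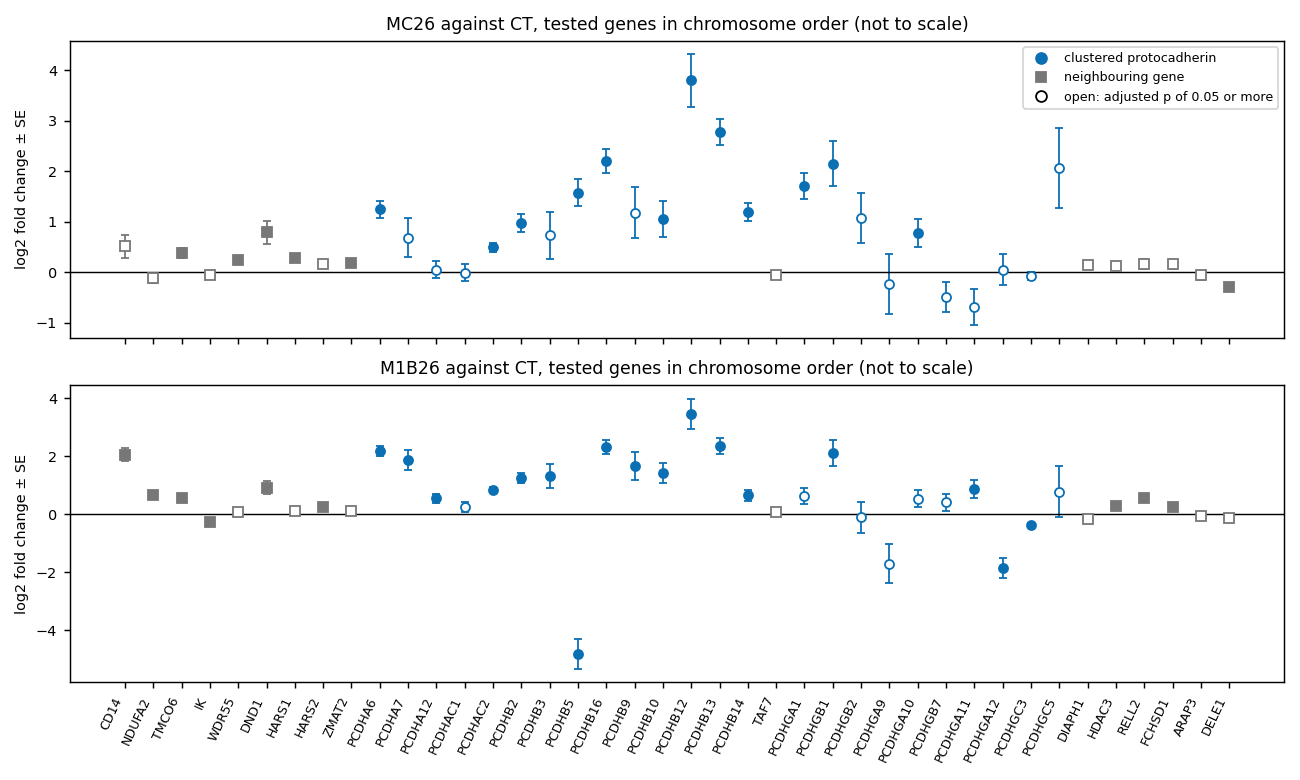
Log2 fold change with its standard error (vertical axis) of the tested clustered protocadherins (circles) and 16 neighbouring genes (squares) in chromosome order, not to scale, in MC26 against CT (top) and M1B26 against CT (bottom). Open symbols have an adjusted p of 0.05 or more (edgeR). The neighbours lie between -0.28 and 0.79 in MC26 and between -0.26 and 2.06 in M1B26, where CD14 is the highest, while beta members stand above 0 with the exception of PCDHB5 in M1B26.

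Genes known to organise or silence the clusters were all expressed. Of 26 regulators tested, 4 rose and 3 fell in MC26 compared with CT, whereas 1 rose and 16 fell in M1B26 compared with CT and 1 rose and 17 fell compared with MC26, with median log2 fold changes of 0.04, -0.25 and -0.28. Of all tested genes 38.7%, 48.9% and 39.5% were called, and 19.9%, 23.7% and 18.4% were lower, so that the regulators' count was below the background in MC26 and above it, on the lower side, in M1B26. CTCF, the insulator protein that brings protocadherin promoters to their enhancers, fell by 0.22 in M1B26 compared with CT (74.9 to 64.4 CPM, edgeR adjusted p = 0.00855). STAG1 and STAG2, subunits of the cohesin ring, had log2 fold changes of -0.53 and -0.42 in the same comparison and passed. SMCHD1, which represses clustered protocadherins, fell by 0.50 (91.4 to 64.6 CPM, edgeR adjusted p = 0.00156). TET1, which oxidises methylated cytosine, was the member that rose, from 0.844 CPM in CT to 1.51 CPM in M1B26. The maintenance methylation factors DNMT1 and UHRF1 rose by 0.42 and 0.58 in MC26 and did not pass in M1B26 compared with CT. Whether these levels bear on the protocadherins was not tested.

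Proteins that bind or process clustered protocadherins were expressed in all lines apart from RET. Of 19 such genes 18 were tested, and 3 rose and 2 fell in MC26 compared with CT, 2 rose and 3 fell in M1B26 compared with CT, and 3 rose and 5 fell in M1B26 compared with MC26. Against CT these counts were below the background of 38.7% and 48.9%, and compared with MC26 near that of 39.5%. CYFIP2 and ABI2, parts of the WAVE actin-nucleation complex that docks on protocadherin tails, fell in MC26, with log2 fold changes of -1.66 and -0.98. In M1B26 compared with CT ABI2 also fell (log2 fold change -0.56, edgeR adjusted p = 0.00025), and CYFIP2 did not pass. PTK2B, a focal adhesion kinase that the constant tails inhibit, fell by 0.68 in M1B26 compared with CT. FYN, a Src-family kinase, rose by 1.44 in MC26 and 1.03 in M1B26.

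Protocadherins outside the clusters changed as well. Of 12 such genes 6 were tested, and 3 rose and 0 fell in MC26 compared with CT, 5 rose and 1 fell in M1B26 compared with CT, and 2 rose and 2 fell in M1B26 compared with MC26. Of all tested genes 38.7%, 48.9% and 39.5% were called in the same order. Those higher were 18.8%, 25.2% and 21.2%, and those lower 19.9%, 23.7% and 18.4%. PCDH7 went up from 10.2 CPM for CT to 56.8 for MC26 and 56.4 for M1B26, and PCDH1 from 9.95 to 41.3 and 20.2 CPM. PCDH20 was at 0.590, 0.519 and 3.91 CPM in the 3 lines and rose by 2.74 on the log2 scale in M1B26 compared with CT and by 2.90 compared with MC26. PCDH9 fell by 1.68 in M1B26 compared with CT.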

How the data were processed

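Poly-A RNA libraries of 9 MCF10A-derived cultures were paired-end sequenced, and titles gave each library its group. The deposited table holds raw counts by symbol. The authors aligned to GRCh38 using STAR (2.7.3a), and the study's methods name Salmon (1.1.0) on protein-coding genes for quantification. The deposited values are whole numbers, and pseudogene symbols such as PCDHA14 are also listed, so whether Salmon made them is not known. The strand setting and the handling of reads shared between genes are not given in the sources used here. All columns were mapped to samples (0 unused).

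Testing used edgeR 4.0.16 under R 4.3.3. Symbols passing filterByExpr (minimum count 10) were kept (15717), libraries were scaled by TMM (factors 0.968 to 1.07), and the 9 libraries entered a quasi-likelihood model of line alone. Tests were 2-sided, p-values were adjusted by Benjamini-Hochberg over all tested genes, and an adjusted p under 0.05 was called. The biological coefficient of variation was 10.4%. SE was the absolute log2 fold change divided by the square root of F.

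Members, context lists and rules were chosen with earlier results of these data known. Values per library were given for the 5 most abundant tested members of each cluster, the up to 4 called members with the highest and 4 with the lowest log2 fold change of at least 1 in size in each comparison, the C-type members and PCDHB1. The sums of clusters, shares and overlaps carry no test. Exons and repeated windows of 100 bases came from GENCODE v44, a later release than the authors' annotation. DESeq2 1.42.0, other scalings, filters and library sets were tried as alternatives.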

Additional observations from a re-analysis of the deposited data

Results flagged for a closer look

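The direct comparison of M1B26 with MC26 differed from 0 for 11 tested members (edgeR, adjusted p under 0.05), which means that their changes from CT differed between the transformed lines. This was 45.8% of the 24 tested members, where 39.5% of all tested genes were called, so the count stood near the background. Log2 fold changes of M1B26 over MC26 were 0.94 for PCDHA6, 1.20 for PCDHA7, 0.50 for PCDHA12 and 0.35 for PCDHAC2 in alpha. In beta they were -6.39 for PCDHB5, a fitted value that depends on the prior count, and -0.55 for PCDHB14. In gamma they were -1.07 for PCDHGA1, 0.89 for PCDHGB7, 1.56 for PCDHGA11, -1.90 for PCDHGA12 and -0.31 for PCDHGC3. PCDHB5 was the member with opposite called directions compared with CT, higher in MC26 by 1.57 and lower in M1B26 with 0, 1 and 1 counts. For the other 10 members at least 1 change from CT did not pass or both were in the same direction. Groups of 3 libraries were not tested for outlying libraries.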

How the results depend on the processing

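Of the 12, 17 and 11 members called in MC26 compared with CT, M1B26 compared with CT and M1B26 compared with MC26, no filter gave 19, 21 and 17, where 50 members are tested in place of 24. Of all 29997 genes in that fit 6391, 7994 and 6404 were called. A mean of at least 50 counts, which leaves 11 members, gave 7, 9 and 6. With that filter 5252, 6739 and 5629 of all 12845 genes were called. Leaving out a library gave 11 to 13, 13 to 18 and 8 to 12. In those fits 4524 to 6127, 6282 to 7941 and 4503 to 7166 of 15959 to 16069 genes were called. With the replicate block the counts were 12, 17 and 12, where 5879, 7513 and 6009 of the 15717 tested genes were called. In MC26 compared with CT PCDHGA10 was no longer called (edgeR adjusted p = 0.0542) and PCDHGC5 was (0.00627). Between M1B26 and MC26 PCDHGC5 was called (edgeR adjusted p = 0.041). Same-numbered libraries did not deviate together (correlations over genes of -0.114 to 0.136 in 9 pairs, against -0.129 to 0.119 in 18 pairs with different numbers), so the block was not read as a pairing.

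For the summed ratios the median of the fitted values of tested members gave other values, since a sum is led by abundant members. In MC26 compared with CT alpha moved from 0.35 to 0.49 and gamma from 0.03 to 0.41. In M1B26 compared with CT gamma reversed, from -0.33 to 0.48, and alpha was 0.70 with total counts. Between M1B26 and MC26 alpha moved from 0.44 to 0.50, beta from -0.22 to 0.13 and gamma from -0.36 to -0.69. Leaving out a library gave 0.32 to 0.40 for alpha, 1.37 to 1.65 for beta and -0.05 to 0.10 for gamma in MC26 compared with CT. The ranges were 0.76 to 0.84, 1.21 to 1.36 and -0.41 to -0.28 in M1B26 compared with CT, and 0.42 to 0.46, -0.36 to -0.08 and -0.43 to -0.32 between M1B26 and MC26.

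For the 19 tested members of the 21 named, 57 member comparisons were refitted under 885 alternatives. Of these 842 kept their side of the threshold, 35 lost a call, 8 gained one and 0 reversed, and 27 of the 36 called comparisons were called in all alternatives. Depth limits members near the filter, which lay at 0.229 CPM.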

Other observations

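Members below the filter were described in the fit of all symbols with at least 1 count, an alternative whose values rest on few reads. In MC26 compared with CT that fit called PCDHB7 (14 counts in CT, 48 in MC26 and 18 in M1B26, summed over 3 libraries), PCDHB8 (1, 16 and 17 counts) and PCDHB11 (3, 24 and 9 counts) higher. Repeated windows made up 25.6% of PCDHB8, which bears on how reads were divided among beta members. PCDHA4 was called lower in MC26, with 31, 2 and 7 counts. PCDHA1 was called higher in M1B26 compared with CT, with 5, 15 and 27 counts, and M1B26 replicate 2 held 16 of the 27. Of the 2726 own bases of PCDHA1, 2719 lie opposite another annotated gene. Without stated strand counting, its reads cannot be told apart from those of the other strand. PCDHGB5 was called lower in M1B26 compared with CT, with 20, 7 and 1 counts. PCDHGA4 had 16, 26 and 6 counts and was called lower in M1B26 than in MC26.

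PCDHA11 had 16, 0 and 0 counts in CT, 9, 1 and 1 in MC26 and 8, 0 and 0 in M1B26, so replicate 1 of each line held nearly all of its counts. This member was chosen after its values were seen. The 5 rows for protocadherin pseudogenes of the locus had at most 3 counts in a library and 22 counts in total.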
